A study of Mus musculus with 12 samples.

Results

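Liver RNA of untreated diabetic mice was read in the Cy3 channel of 12 two-color arrays, which is 12 of the 24 channels of the series. All mice were 8-week-old male db/db animals of the BKS.Cg-+Leprdb/+Leprdb/Jcl strain, which lack a functional leptin receptor and become obese and diabetic. Each channel held RNA pooled from 3 mice. On 9 arrays the control mice had received Mg(OH)2 by gavage once a day, the residue that MgH2 leaves once its H2 is released, for 1, 3 or 7 days, with 3 arrays per time. On the other 3 arrays the control mice had drunk degassed water for 14 days. The treated partner of each pool, labelled with Cy5, received H2 from MgH2 or from H2-water, and its channel enters only where stated. Members were chosen by channel and label alone, and no measured value was used. The labels do not say whether arrays of the same number at 1, 3 and 7 days held one RNA pool, so they were averaged into 3 gavage pools and compared with 3 water pools. The water arrays lay on a slide of their own and were read with another version of the scanner software than the gavage arrays, which lay on 3 other slides. Control set, time on study, slide, scan and software version therefore cannot be told apart. Levels are given in ppm, a share of the summed Cy3 signal of an array. Since the brightness of a probe depends on its sequence, no level is set against that of another gene.

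The liver secretes most plasma proteins, and its content of many transcripts follows the hour of the day and the last meal. In the circadian clock, ARNTL (BMAL1) and CLOCK bind E-box sequences and drive Per, Cry and Nr1d genes and the output factors DBP, TEF and HLF, which act through D-box sequences. The products of Per, Cry and Nr1d genes then repress the arm that made them, so that Arntl and Dbp peak at opposite times of day. Hepcidin, encoded by Hamp, is the liver hormone that blocks iron release by degrading ferroportin. Mice also carry Hamp2, a close copy of the gene. Transcription of Hamp is raised by BMP signals that report iron stores and by interleukin-6 through STAT3. The acute phase proteins, such as serum amyloid A, are secreted under the same inflammatory signals.

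Promoters of the clock and hepcidin genes on which the results below turn are printed to show which of these elements stand in front of each gene. Each sequence covers the 250 bases before the RefSeq start (GRCm38.p6, 5′ to 3′ on the strand of the gene). Capitals mark the matches to CACGTG (E-box), TTATGNAA (D-box), TTCNNNGAA (STAT-like) and GGCGCC (BMP-responsive), each searched on both strands.
Per1, chr11:69098699-69098948, plus strand: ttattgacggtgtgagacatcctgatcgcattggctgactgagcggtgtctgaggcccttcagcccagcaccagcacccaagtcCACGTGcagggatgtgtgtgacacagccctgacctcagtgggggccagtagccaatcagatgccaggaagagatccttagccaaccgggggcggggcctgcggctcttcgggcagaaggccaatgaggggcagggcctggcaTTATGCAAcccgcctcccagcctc
Dbp, chr7:45704997-45705246, plus strand: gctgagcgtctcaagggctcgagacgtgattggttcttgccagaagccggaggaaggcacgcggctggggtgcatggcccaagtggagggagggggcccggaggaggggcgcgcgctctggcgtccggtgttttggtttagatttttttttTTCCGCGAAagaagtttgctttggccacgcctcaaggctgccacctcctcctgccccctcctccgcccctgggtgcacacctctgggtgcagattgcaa
Ciart, chr3:95882229-95882478, minus strand: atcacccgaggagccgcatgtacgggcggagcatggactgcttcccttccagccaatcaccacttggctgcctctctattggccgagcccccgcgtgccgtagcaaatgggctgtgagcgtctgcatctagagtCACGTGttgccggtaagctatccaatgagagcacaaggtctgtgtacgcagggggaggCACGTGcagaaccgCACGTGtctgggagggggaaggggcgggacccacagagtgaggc
Cry1, chr10:85185055-85185304, minus strand: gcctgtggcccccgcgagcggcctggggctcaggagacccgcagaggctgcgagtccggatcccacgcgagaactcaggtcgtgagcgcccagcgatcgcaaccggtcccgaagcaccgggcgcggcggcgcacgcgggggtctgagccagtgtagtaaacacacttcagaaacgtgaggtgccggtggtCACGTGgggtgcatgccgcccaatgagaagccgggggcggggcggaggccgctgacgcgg
Hamp, chr7:30944030-30944279, minus strand: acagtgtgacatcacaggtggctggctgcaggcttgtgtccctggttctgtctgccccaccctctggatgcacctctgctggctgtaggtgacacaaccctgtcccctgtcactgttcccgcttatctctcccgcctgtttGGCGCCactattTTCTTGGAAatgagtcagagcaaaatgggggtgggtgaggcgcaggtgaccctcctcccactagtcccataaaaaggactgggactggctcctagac
Hamp2, chr7:30924182-30924431, minus strand: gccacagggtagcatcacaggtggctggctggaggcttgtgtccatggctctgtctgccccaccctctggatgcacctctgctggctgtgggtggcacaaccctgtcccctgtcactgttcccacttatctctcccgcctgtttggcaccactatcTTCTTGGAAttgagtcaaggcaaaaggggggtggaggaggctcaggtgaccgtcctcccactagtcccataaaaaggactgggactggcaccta
The E-box occurs in 6.02% of all 32851 promoters of the table, the D-box in 3.07%, the STAT-like motif in 7.02% and the BMP-responsive motif in 9.59%. Ciart, which encodes a repressor of the clock, had 3 E-boxes, at 116, 58 and 44 bases before the start. Cry1 had 1 at 60 bases, and the upstream one of 2 Per1 promoters had 1 at 166 bases and a D-box at 24 bases. The downstream Per1 promoter, not printed, held neither but a STAT-like match at 210 bases. The windows of Dbp, Hamp and Hamp2 held none of these E-box letters. Hamp had a STAT-like match at 97 bases and a BMP-responsive match at 109 bases. Hamp2 had the same STAT-like letters at 94 bases but not GGCGCC. In these windows 227 of 247 aligned bases of Hamp and Hamp2 were identical (91.9%), and the probes of the pair may share signal. A match describes letters only, and binding was not measured.

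All arrays gave a liver profile. The 12 Cy3 totals ran from 72296118 to 100714569 units, 51.9% to 55.7% of the 39429 probes stood well above background, and no spot was saturated. Of 22 secreted hepatocyte proteins, 21 were above background on all 12 arrays, with a summed signal of 28310 to 29740 ppm in the gavage pools and of 25780 to 25790 ppm in the water pools. Albumin (Alb), the main plasma protein, read 2192, 2111 and 2282 ppm in gavage pools 1 to 3 and 2142, 2108 and 1963 ppm in the water pools, and the sets overlapped. Apoa2, a high-density lipoprotein component, read 2607, 2803 and 2796 ppm in the gavage pools and 2077, 2079 and 2032 ppm in the water pools. Fabp1, which carries fatty acids in the hepatocyte, read 2180, 2287 and 2224 ppm against 1910, 1626 and 1895 ppm. Both were lower in every water pool, with differences of −0.41 ± 0.05 and −0.31 ± 0.08 (log2, SE), and Fabp1 was not called with the gavage arrays of day 1 alone (−0.03). Of the male-specific genes, Ddx3y and Eif2s3y were above background on all arrays, while Kdm5d, and Xist of the inactive X chromosome, were not. Uty was at least 5.16-fold higher in water, as its probe was above background on the water arrays only. The latter held for 569 of all 39429 probes, and the reverse for 179. Eif2s3y and Ddx3y were higher in water by 0.86 ± 0.06 and 0.51 ± 0.06. The Lepr probe, for the leptin receptor, read 4.79, 5.58 and 4.70 ppm in the gavage pools and 38.2, 41.1 and 38.7 ppm in the water pools, a difference of 2.97 ± 0.08 (log2, SE, adjusted p = 3.25e-07). It is the only Lepr probe tested, and where it lies relative to the db mutation is not given in the sources used here.

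Marker genes of other cells were measured to different extents. All 13 endothelial markers and 11 of 15 stellate cell and fibroblast markers were above background on all 12 arrays. So were 8 of 12 red blood cell markers, of which 9 had a matched probe. These 8 summed to 1393 to 2191 ppm in the gavage pools and 1430 to 2000 ppm in the water pools. Of 13 Kupffer cell markers, the resident macrophages of the liver, 12 were tested, with a summed signal of 240 to 278 ppm in the gavage pools and 212 to 241 ppm in the water pools. Of 17 lymphocyte markers 5 were tested. Their sum was 25.2 to 26.9 ppm in the gavage pools and 96.5 to 113 ppm in the water pools, while Cd3d, Cd3g, Cd8a and Ms4a1 did not pass the filter in either set. Of 18 genes of the exocrine pancreas 4 were tested, and trypsin, elastase and carboxypeptidase genes such as Prss2, Cela1 and Cpa1 did not pass it in either set. The filter asked for a signal well above background on every array.

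The 3 gavage pools differed from each other in many genes, and few probes or none were called between days. Arrays of the same number at 1, 3 and 7 days had correlated deviations from their day means (r from 0.318 to 0.655 over 9 pairs), whereas those of arrays of different numbers had r from −0.478 to 0.091 over 18 pairs (median −0.25). Centering each day on the mean of its 3 arrays pulls the latter below 0. The number was therefore read as a pool. An F test over the 3 numbers, with day as a covariate, called 3315 of 11635 genes (28.5%), with one probe per gene. With only 2 arrays per number, the count of 5088 probes (27.2%) became 1345 without the day 1 arrays, 1705 without day 3 and 971 without day 7. The share of genes called was then 7.42%, 9.53% and 5.51%. With the slide in place of the day as the covariate, 3907 probes were called. Between days 0 of 18696 probes were called in any of the 3 contrasts by limma (0%), and 458, 1112 and 291 had an unadjusted p under 0.05 for 3 against 1 day, 7 against 1 day and 7 against 3 days. With the replicate number as a block 1 probe was called, lower at 7 days than at 1 day, and 1494, 3283 and 929 probes had an unadjusted p under 0.05. If the 3 arrays of a number held the same RNA, these p values measure the spread between arrays, and the near absence of calls between days carries no information on mice sampled at different days.

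Sult2a1, a hydroxysteroid sulfotransferase that is higher in female than in male mouse liver, varied most. It read 1.48, 1.41 and 1.31 ppm on the pool 1 arrays of 1, 3 and 7 days, 3.29, 3.40 and 3.41 ppm in pool 2, and 43.0, 43.3 and 41.6 ppm in pool 3. The 3 arrays of a pool lay close together, and no arrays of different pools overlapped. The 3 arrays of day 1, which shared 1 slide, had the same order as the others. The range between pools was 30.5-fold (adjusted p = 9.7e-07, limma F test). The water pools read 13.5, 34.1 and 23.5 ppm. Slco1a1, a male-biased organic anion transporter, ran the other way, with 3.80, 0.700 and 0.647 ppm in gavage pools 1 to 3. Saa2, an acute phase protein, read 1288, 210 and 540 ppm, and Saa1, its close copy with which it may share signal, 1250, 278 and 625 ppm. For Nr4a1, an immediate early transcription factor, the values were 2.87, 2.53 and 12.8 ppm. Cfd, the adipsin gene of fat cells, read 0.723, 6.13 and 4.11 ppm. Pool 1 was lowest for Cfd and highest for both Saa genes.

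**Figure D1:**
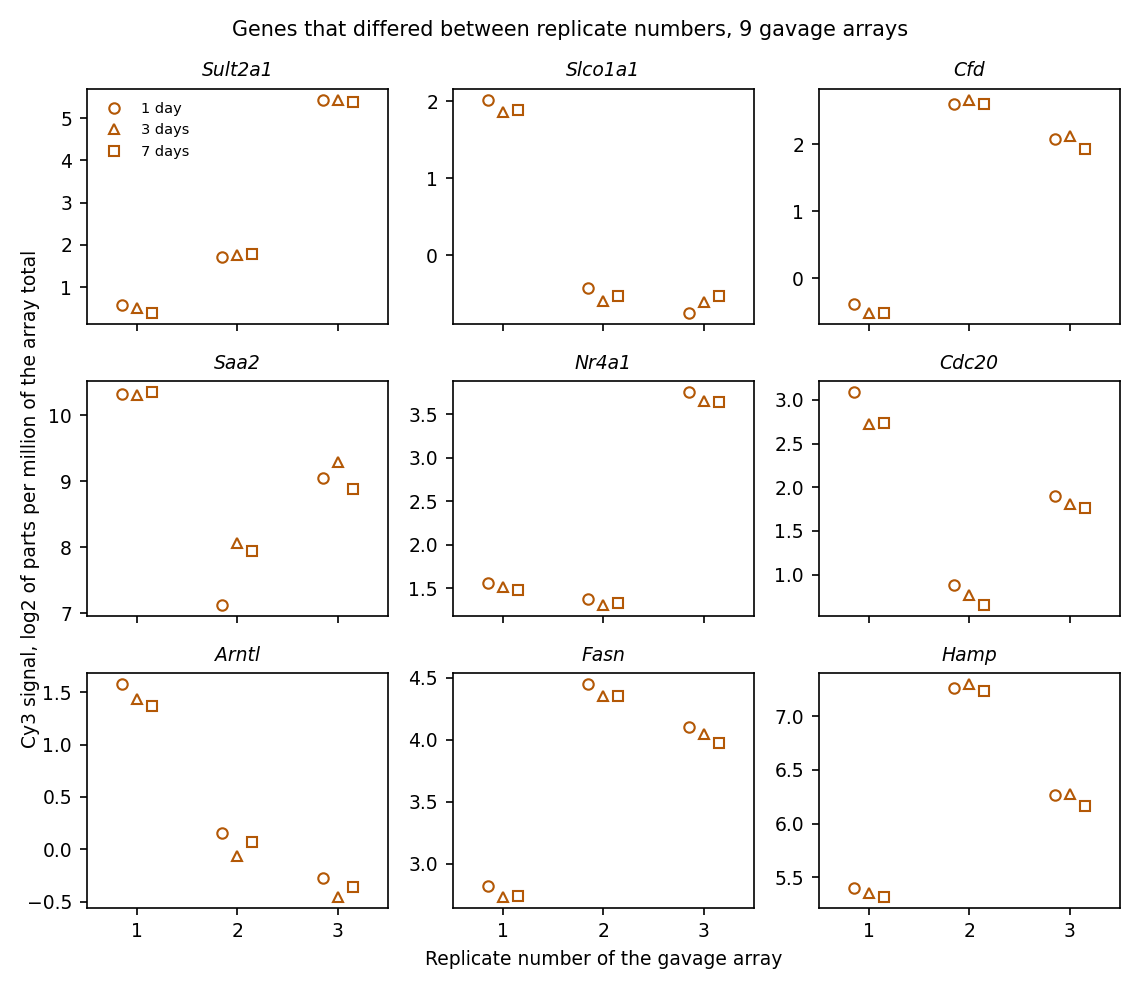
Cy3 signal (log2 ppm of the array total, vertical axis, a separate scale in each panel) of 9 genes on the 9 gavage arrays, by replicate number (horizontal axis) and day (symbol). Arrays of one number lie close together at 1, 3 and 7 days, as for Sult2a1 at 1.31 to 1.48 ppm in number 1 and 41.6 to 43.3 ppm in number 3.

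Many genes of single programs had the same order of pools. Over all 3315 genes called, the highest pool was 1 for 34.4%, 2 for 28.8% and 3 for 36.8%, and the lowest was 1 for 44.3%, 2 for 23.0% and 3 for 32.7%. Of 28 interferon response and antigen presentation genes 22 were called (78.6%, against 28.5% of all genes), all 22 lowest in pool 1 and 20 highest in pool 3. Usp18, which restrains interferon signaling, read 3.54, 4.36 and 5.90 ppm in pools 1 to 3, and Cd74, the class II invariant chain, 13.2, 16.9 and 17.6 ppm. No called member of this list spanned 2-fold. Of 12 Kupffer cell markers 9 were called and all 9 were highest in pool 3, among them Clec4f with 28.4, 31.7 and 32.8 ppm. With the arrays of day 1, 3 or 7 left out, 10, 11 and 11 of the interferon genes were called, and 1 of the Kupffer cell markers each time. Among all genes 7.42%, 9.53% and 5.51% were then called.

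Acute phase genes had another order of pools, with 18 of 19 called, 16 of them highest in pool 1 and 14 lowest in pool 2. The counts called in this paragraph stand beside 28.5% of all genes. Of 18 cell cycle genes 16 were called, with 13 highest in pool 1 and 15 lowest in pool 2. Cdc20, which activates the anaphase-promoting complex, read 7.21, 1.70 and 3.55 ppm (4.23-fold, adjusted p = 4.6e-05, limma F test), and the proliferation marker Mki67 1.94, 0.609 and 1.60 ppm. With the signals as deposited 11 of the called cell cycle genes were highest in pool 1 and 5 in pool 3. Most lipogenic transcripts were lowest in pool 1: of 19 lipogenic genes 17 were called and 16 were lowest there. Fasn, fatty acid synthase, read 6.78, 20.9 and 16.4 ppm (3.08-fold), and Thrsp, an inducer of lipogenesis, 460, 1107 and 986 ppm. Of 24 cholesterol genes 16 were called and 14 were highest in pool 3. Without day 1, 3 or 7 the calls numbered 10, 13 and 10 for acute phase genes, 11, 14 and 11 for the cell cycle, 14, 15 and 13 for lipogenesis and 9, 11 and 6 for cholesterol. The share of all genes called was then 7.42%, 9.53% and 5.51%.

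Sex-biased and clock genes also split by pool, in counts that stand beside the 28.5% of all genes called. Of 14 female-biased genes 13 were called, 12 of them highest in pool 3. Cyp2b13, a cytochrome P450, read 178, 252 and 308 ppm. Of 13 male-biased genes 11 were called and 9 were highest in pool 1. For the clock, 9 of the 11 called members of the evening arm were lowest in pool 1, and all 3 called members of the morning arm were highest there. Arntl read 2.75, 1.04 and 0.778 ppm (3.54-fold), and Dbp 82.6, 166 and 176 ppm. Of 8 red blood cell genes 7 were called, 6 of them highest in pool 1. Without day 1, 3 or 7, calls numbered 11, 12 and 11 for female-biased genes, 6, 7 and 5 for male-biased genes, 9, 8 and 8 for the evening arm, 2 each time for the morning arm and 6 each time for red blood cells. All genes then had shares of 7.42%, 9.53% and 5.51% called. Against 28.5% of all genes, few genes of basic metabolism separated the pools: 5 of 46 oxidative phosphorylation subunits (10.9%), 6 of 39 ribosomal proteins (15.4%) and 2 of 24 fatty acid oxidation genes (8.33%). The median range between pools was 0.09 (log2) in both the first and the last of these lists and 0.15 over all genes. The part of each pool's mice in these differences was not tested, since a pool mixes 3 mice and the share of a cell type and the RNA per cell cannot be told apart.

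**Figure D2:**
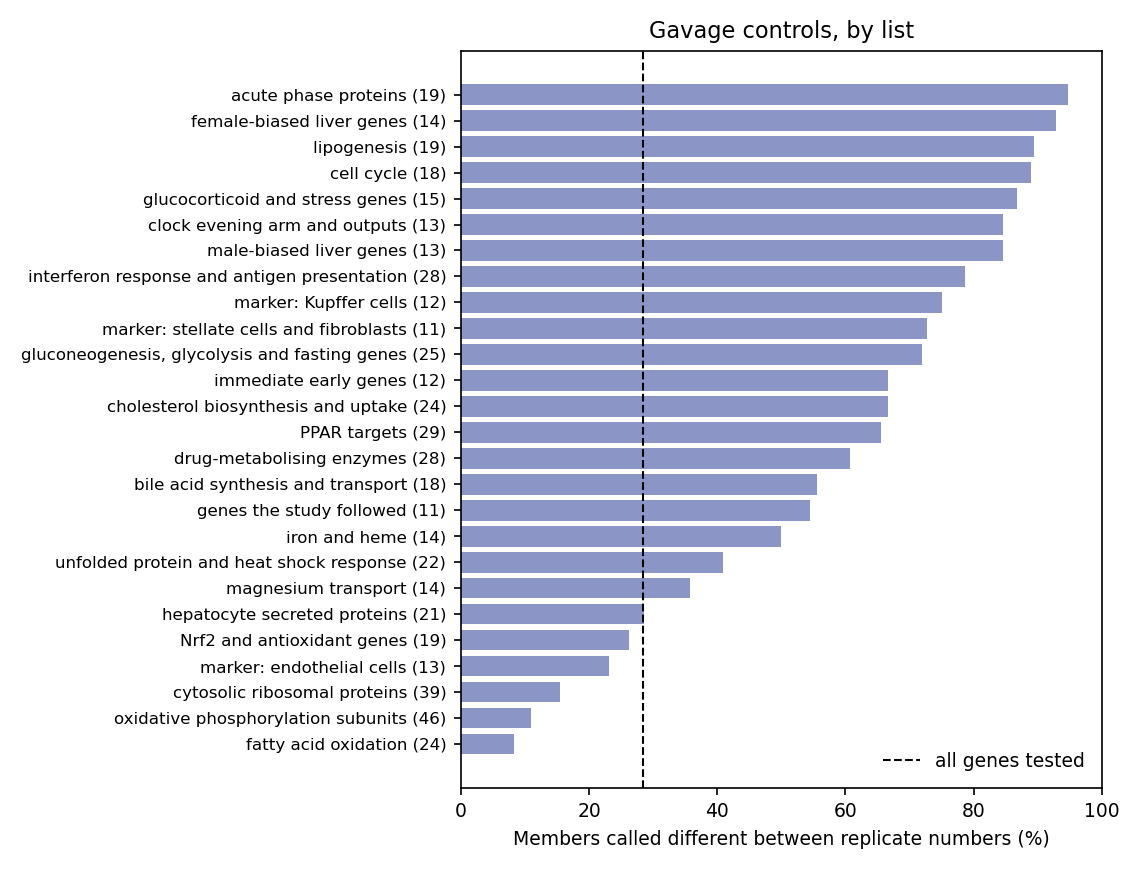
Share of the tested members of each list (number in brackets, lists with at least 10 tested) called different between the 3 replicate numbers of the gavage controls, in percent. The dashed line is the share over all genes tested (28.5%), which acute phase, female-biased, lipogenic and cell cycle genes exceed and fatty acid oxidation, oxidative phosphorylation and ribosomal genes do not reach.

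Over all 18696 probes the median SD between pools was 0.08 (log2) in both the 3 gavage and the 3 water pools, and 0.07 between arrays of the same number. A gavage pool was the mean of 3 arrays and a water pool was 1 array. The SDs of the sets are therefore unlike measures, and their likeness does not show that the pools varied equally. A few genes stood apart in a single water pool. Such a value rests on 1 array, so a difference of the pool and an artifact of the array cannot be told apart. Fam98c read 0.372 ppm in water pool 1 against 8.06 and 7.80 ppm in the other two, and 11.5, 11.2 and 11.8 ppm in the gavage pools. Selenon, a selenoprotein of the endoplasmic reticulum, read 4.14 ppm in water pool 1 and 34.9 and 37.8 ppm in pools 2 and 3. Gtf3c4 read 8.69 ppm in water pool 2 but 1.30 and 1.21 ppm in pools 1 and 3. None of these 3 was called between the control sets, though without water pool 1 both Fam98c (−0.54) and Selenon (2.62) were.

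Between the control sets most probes differed. Of 18696 probes above background on all 12 arrays, 9159 (49.0%) were called higher and 4118 (22.0%) lower in water than in gavage controls, and 75.5% did not overlap between the 3 pools of each set. In the treated channel, read on the same arrays and dye-normalized against Cy3, the median difference was 0.23, against 0.21 in Cy3, and the differences of the probes correlated at r = 0.976 across the probes, which are not independent replicates. At one probe per gene 69.9% of 11635 genes were called, 46.8% higher and 23.1% lower. Called differences were mostly small, with a median of 1.47-fold. More than 2-fold, 1426 genes (12.3%) were higher and 71 (0.610%) lower. The direction of small differences rests on the scaling: over all probes the median difference was 0.21 (log2), and it was −0.07 with the signals as deposited, −0.17 with centered medians, −0.02 with 75th percentiles set equal and −0.16 after quantile normalization. Higher and lower calls then numbered 5547 and 6672, 5168 and 8750, 6488 and 6851, and 5266 and 8616, in that order. For each list the median is therefore read beside 0.21. That value depends on the level, since the median was 0.06 among the brighter 9348 probes. Of 21 hepatocyte secreted proteins 18 lay below the median of all probes, but 6 after quantile normalization. A list of bright genes with a median below 0.21 is thus not read as lowered on that ground.

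Clock genes differed in both directions, with outputs lower and members of the morning arm higher in water controls. Dbp read 82.6, 166 and 176 ppm in the gavage pools and 27.7, 28.3 and 28.1 ppm in the water pools. All water pools lay below all gavage pools, by 2.26 ± 0.28 (SE, adjusted p = 0.000371, limma), and a second Dbp probe fell by 2.51. Usp2, a clock-controlled deubiquitinase, read 15.7, 27.1 and 37.6 ppm against 4.67, 7.19 and 6.18 ppm and fell by 2.09 ± 0.32 (adjusted p = 0.00113). Per1, with an E-box and a D-box in the upstream of its 2 promoters, read 21.7, 31.9 and 45.1 ppm against 8.80, 18.3 and 12.8 ppm, with a difference of −1.31 ± 0.34 (adjusted p = 0.012). Its sets did not overlap. Tef was lower by a difference of −0.63 ± 0.15 (adjusted p = 0.00773). Nr1d1, a repressor of Arntl, had −0.78 ± 0.38 and was not called (adjusted p = 0.104). Of the 16 evening arm and output genes 13 were tested, with 6 called lower (against 23.1% of all genes), 2 called higher and a median of −0.60. Cys1 was the larger of the 2 higher, at 1.03, and became the only one when any pool other than gavage pool 3 was left out.

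Most tested members of the morning arm moved the opposite way. Arntl read 2.75, 1.04 and 0.778 ppm in the gavage pools and 5.43, 5.58 and 4.73 ppm in the water pools, a difference of 2.00 ± 0.44 (adjusted p = 0.0056, limma). Clock rose by 1.15 ± 0.10 and Nfil3, which represses D-box genes, by 1.00 ± 0.15. With 3 of 4 tested members called higher (46.8% of all genes), the median was 1.07. The other tested member was not called, but was called lower with the signals as deposited, centered medians, 75th percentiles and quantiles. Cry1, listed with the morning arm although it has an E-box, stood above background on all water arrays and on none of the gavage arrays. This makes it at least 6.47-fold higher in water. Ciart, with 3 E-boxes, stood above background on all gavage arrays and on no water array, and was at least 7.04-fold lower in water. These probes did not pass the filter and were not tested. Of all 39429 probes, 569 were above background in this way in the water set only and 179 in the gavage set only. The signs of both list medians held under every scaling and with normexp. The median of the evening arm lay between −0.98 and −0.33 and that of the morning arm between 0.69 and 1.07. Among the brighter probes the evening arm had a median of −0.71 over 10 genes. Only 2 morning genes were left there, with 1 called higher and a median of 0.48, too few to show a sign. The hour of killing is not given in the sources used here, and its part was not tested. Within the gavage set, pool 1 had the lowest Dbp and the highest Arntl of the 3 pools, with each still between those of the other 2 gavage pools and the water pools.

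**Figure D3:**
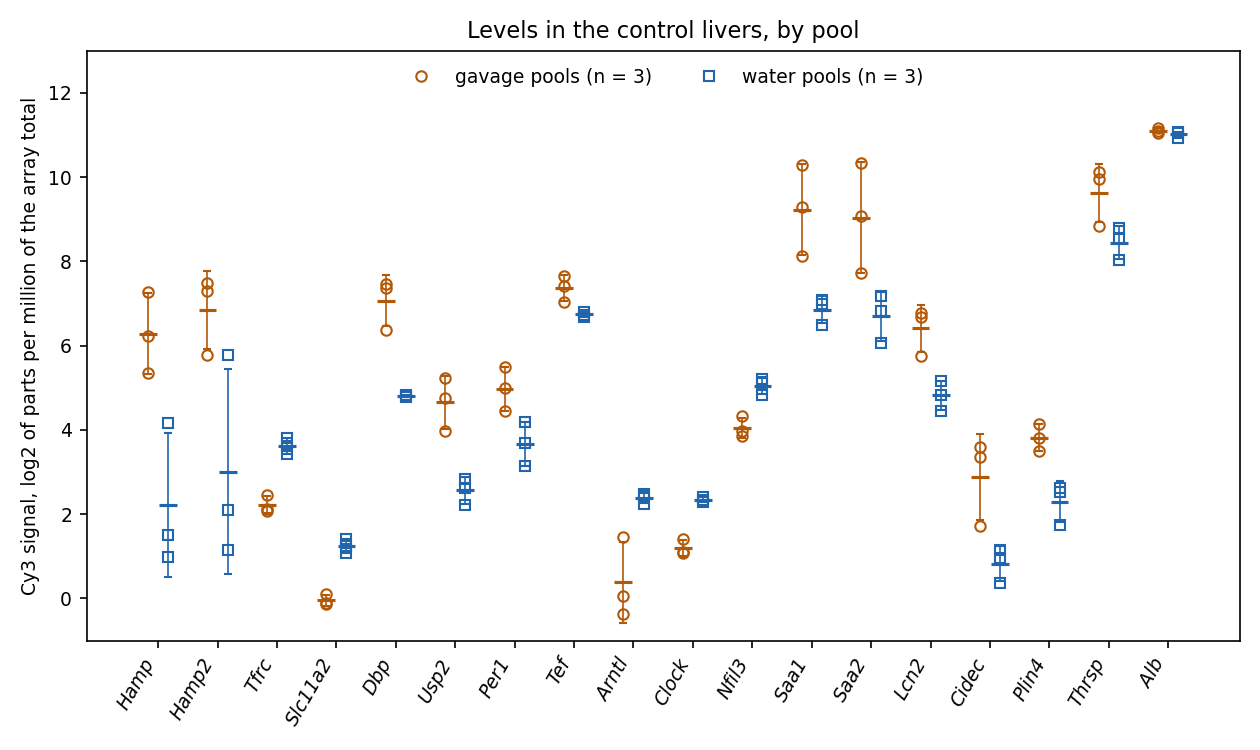
Cy3 levels (log2 ppm of the array total) of 18 genes in the 3 gavage and the 3 water pools. Circles are gavage pools, each the mean of 3 arrays, and squares are water pools, each 1 array. Lines are the mean and bars the SD of each set, n = 3. Hamp, Dbp, Usp2, Saa1, Lcn2 and Cidec lie lower in every water pool and Tfrc, Slc11a2, Arntl and Clock higher, while Alb overlaps.

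Hepcidin was the gene that fell most. Hamp read 41.0, 154 and 75.3 ppm in the gavage pools and 1.97, 2.86 and 18.0 ppm in the water pools. Every water pool was below every gavage pool, but water pool 3 was several times higher than the other water pools. The difference was −4.07 ± 0.89 (adjusted p = 0.00556), or 16.8-fold. Hamp2 read 54.6, 157 and 178 ppm against 2.23, 4.30 and 54.9 ppm. Water pool 3 thus overlapped the gavage range, and the difference of −3.84 ± 1.18 (adjusted p = 0.0238) lost its call without water pool 1 or 2 (−2.91 and −3.38) and without gavage pool 2 or 3 (−3.61 and −3.52). Tfrc, the transferrin receptor, read 5.48, 4.39 and 4.23 ppm against 12.2, 14.0 and 10.8 ppm, higher in every water pool, by 1.39 ± 0.13 (adjusted p = 0.000102), and its second probe rose by 1.36. Slc11a2 (DMT1), the ferrous iron importer, rose by 1.29 ± 0.11, and by 1.01 on a second probe. Smad7, an inhibitor of BMP signaling, rose by 1.08 ± 0.11. Alas1, which starts heme synthesis, had −1.14 ± 0.39 (adjusted p = 0.0355), but its second probe was at −0.04, and the call was lost without water pool 1 or 3 or without gavage pool 2 or 3 (−0.75 to −1.25). Of 14 iron and heme genes tested 3 were called higher and 6 lower, against 46.8% and 23.1% of all genes, with a median of −0.08. The lower calls numbered 3 without water pool 1 or gavage pool 2 or 3.

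The acute phase genes were lower in water controls, while over all genes 23.1% were called lower and 46.8% higher. Of 19 tested 14 were called lower and 1 higher (0 without water pool 1 or 2 or gavage pool 2 or 3, and 3 without gavage pool 1), with a median of −0.49, and the median lay between −0.87 and −0.45 under the other scalings and normexp. Saa1 read 1250, 278 and 625 ppm in the gavage pools and 89.8, 137 and 127 ppm in the water pools, without overlap, and fell by 2.37 ± 0.51 (adjusted p = 0.00539). Saa2 read 1288, 210 and 540 ppm against 67.0, 146 and 113 ppm and fell by 2.35 ± 0.65 (adjusted p = 0.0153). Lcn2, a siderophore-binding protein released in inflammation, read 110, 54.3 and 103 ppm against 22.0, 35.9 and 28.4 ppm and fell by 1.59 ± 0.30. For these 3 genes the lowest gavage pool (2) still exceeded all water pools. Smaller falls were seen for Orm2 (0.79 ± 0.10) and hemopexin, Hpx (0.63 ± 0.08).

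Cidec and Plin4, both among the largest falls, coat or fuse lipid droplets. Cidec, a droplet fusion protein, read 3.28, 12.0 and 10.2 ppm against 1.30, 2.23 and 1.94 ppm, lower in every water pool by 2.06 ± 0.50 (adjusted p = 0.00892), and by 1.22 on a second probe. Plin4, a droplet coat protein, fell by 1.52 ± 0.27. Thrsp was at −1.19 ± 0.36 and lost its call without water pool 1 (−0.98) or gavage pool 2 (−0.95) or 3 (−1.03). Fasn, at −0.69 ± 0.42, was not called. Over all genes 23.1% were called lower and 46.8% higher. Of 19 lipogenic genes 7 were called lower and 3 higher, with a median of −0.34. The lower calls numbered 4 without water pool 1 or gavage pool 3, and 11 without gavage pool 1, when Fasn was called too (−1.17). Of 25 genes of gluconeogenesis, glycolysis and fasting 12 were called lower and 5 higher, with a median of −0.14. Sds, which breaks down serine, read 176, 229 and 238 ppm against 105, 91.3 and 120 ppm. Tat, tyrosine aminotransferase, fell by 0.62 ± 0.09. The insulin receptor substrate Irs1 rose by 1.07 ± 0.11, with a second probe at 1.12. Cfd was at −2.71 ± 0.83 (adjusted p = 0.0232), a call lost without water pool 1 or 3 or gavage pool 2 or 3 (−2.10 to −2.70).

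Of the 12 genes of the PPARα program that the study followed 11 were tested, with 7 called lower, 0 called higher and a median of −0.32. Over all genes 23.1% were called lower and 46.8% higher. Ppara itself read 110, 145 and 165 ppm against 83.0, 80.3 and 89.6 ppm, a difference of −0.71 ± 0.15 (adjusted p = 0.00415), although its other probes ranged from −0.52 to 0.13. Cpt1a, the carnitine shuttle enzyme, was at −0.23 ± 0.05 on both of its probes (adjusted p = 0.0068). Ppargc1a, the PGC-1α gene, was at −0.03 ± 0.12 and not called. With the mean of its probes Ppara was not called. Acaa1b, a peroxisomal thiolase, was at −0.44 ± 0.14 (adjusted p = 0.0253) and lost its call without water pool 1 or gavage pool 2 or 3 (−0.34 to −0.41). Among 29 wider PPAR targets 8 were higher and 10 lower, from Cidec (−2.06 ± 0.50) to Aqp7 (1.82 ± 0.14), and Ucp2, a mitochondrial uncoupling protein, was at −1.36 ± 0.11. Angptl4, which inhibits lipoprotein lipase, read 187, 203 and 205 ppm against 100, 128 and 116 ppm.

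**Figure D4:**
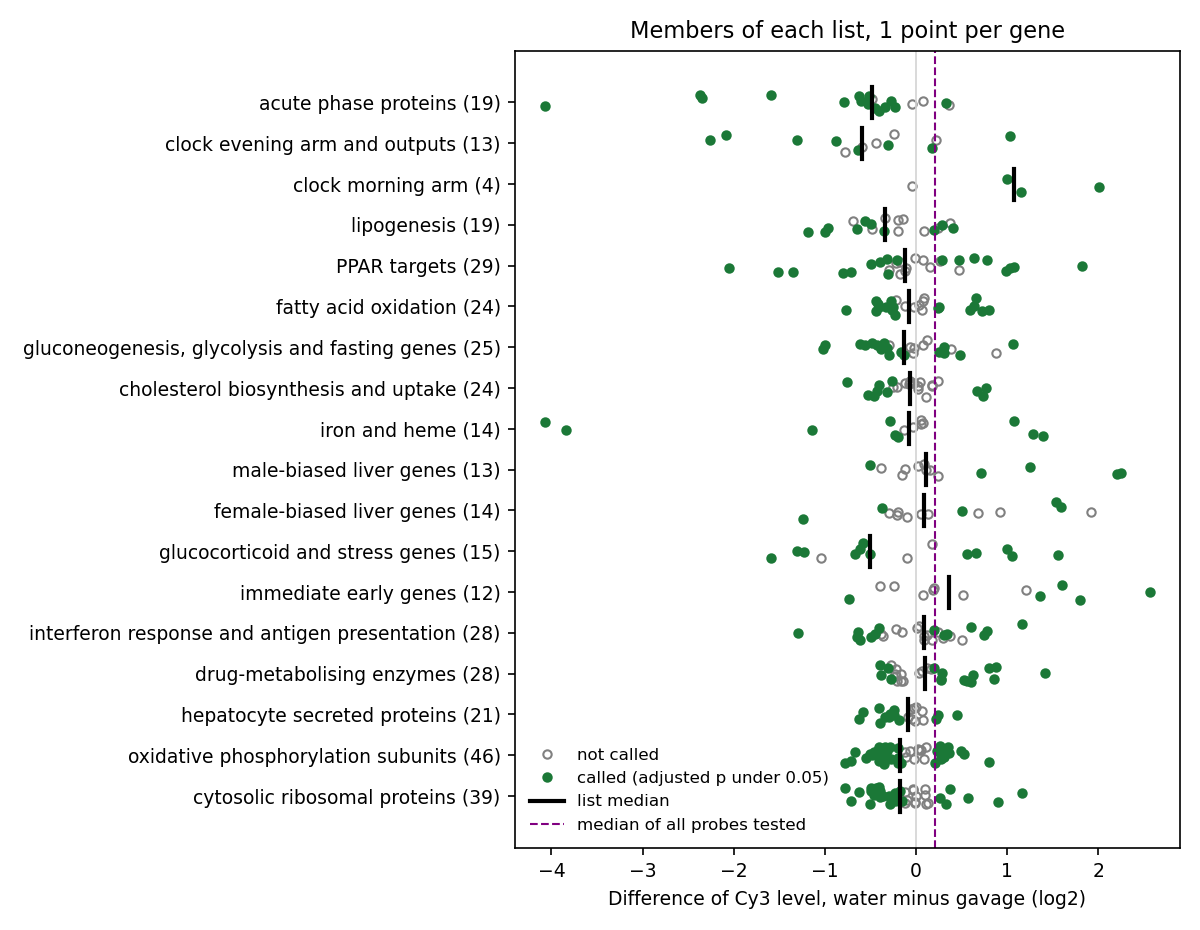
Difference of Cy3 level between water and gavage controls (log2, horizontal axis) for each tested member of 18 lists (1 point per gene, filled where called by limma). The black bar is the list median and the dashed line the median of all probes (0.21). The medians of acute phase (−0.49), clock evening (−0.60) and lipogenic genes (−0.34) lie left of 0, and that of the clock morning arm (1.07) right.

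Genes of basic cell functions were called in both directions, in numbers that rest on the scaling. Over all genes 46.8% were called higher and 23.1% lower. Of 46 oxidative phosphorylation subunits 24 were lower and 13 higher, with a median of −0.18, but 30 and 2 with the signals as deposited, 33 and 2 with centered medians and 31 and 3 with 75th percentiles set equal. Of 39 ribosomal proteins 20 were lower and 6 higher, with a median of −0.17, and 29, 33 and 30 lower and 3 higher under the same 3 scalings. After quantile normalization 23 subunits were lower and 13 higher, and 18 ribosomal proteins lower and 6 higher. With normexp these counts were 25 and 11, and 24 and 6. Below the median of all probes lay 34 subunits and 33 ribosomal proteins, but 23 and 19 after quantile normalization. Rpl4 rose by 1.16 ± 0.06, whereas Rpl15 fell by 0.78 ± 0.06 on its brightest probe and was at 0.16 on the other. Ndufa8 of complex I rose by 0.80 ± 0.06 and Ndufs8, of the same complex, fell by 0.77 ± 0.05. Among genes for drug metabolism Gsta1 rose by 1.42 ± 0.12 and Cyp2c37 by 0.88 ± 0.07, and 12 of 28 were higher and 4 lower (8 without water pool 2), against 46.8% and 23.1% of all genes, with a median of 0.10 that fell below 0 with the signals as deposited, centered medians, 75th percentiles or quantiles. Of 14 magnesium transport genes 8 were higher and 3 lower, near the 46.8% and 23.1% of all genes. Mrs2, the mitochondrial magnesium channel, rose by 1.37 ± 0.09, Trpm7, a channel kinase, rose by 0.92 ± 0.08, and Slc41a3 fell by 1.15 ± 0.15. The list's median of 0.20 turned negative under the same 4 scalings and among the brighter probes.

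Of 18 immediate early genes 12 were tested. Zfp36, which destabilizes cytokine mRNA, read 0.787, 1.05 and 0.968 ppm against 5.45, 4.23 and 7.16 ppm and rose by 2.56 ± 0.20 (adjusted p = 4.37e-05). Nr4a1 was at 1.21 ± 0.60 and not called, with gavage pool 3 above the water pools, and was called without that pool (1.96). Of the 12 tested 4 were higher and 1 lower, both shares below the 46.8% and 23.1% of all genes. Sex-biased genes varied within both sets: Slco1a1, which read 10.9, 2.52 and 6.12 ppm in the water pools, and Hsd3b5, at 3.997, 0.482 and 1.34 ppm, each spanned several fold. Their differences of 2.21 ± 0.81 (adjusted p = 0.0452) and 2.25 ± 0.76 (adjusted p = 0.0345) lost the call without water pool 1 or 3 or gavage pool 2 or 3, with values from 1.71 to 2.13 and from 1.47 to 2.26. Neither was called with centered medians or 75th percentiles set equal.

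Several other genes were among those that fell most. Mogat2, which makes diacylglycerol, read 5.97, 11.4 and 22.5 ppm in the gavage pools and 3.38, 3.22 and 2.83 ppm in the water pools, and fell by 1.88 ± 0.44 (adjusted p = 0.00758, limma) without overlap. Lgals1, the galectin-1 gene, read 26.1, 58.7 and 65.7 ppm against 10.9, 19.7 and 14.3 ppm and fell by 1.68 ± 0.38. Gpcpd1, a glycerophosphocholine phosphodiesterase, read 6.03, 9.25 and 10.9 ppm against 2.07, 2.49 and 2.75 ppm, and Osbpl3, an oxysterol-binding protein, fell by 1.92 ± 0.43, with a second probe at −1.93. Gavage pool 1 was the lowest gavage pool for all 4. The lists that follow stand beside 46.8% called higher and 23.1% called lower over all genes. Of 15 glucocorticoid and stress genes 7 were lower and 5 higher, with a median of −0.51. Of 24 cholesterol genes 7 were lower and 3 higher, with a median of −0.07, and 15, 16, 14 and 13 were lower with the signals as deposited, centered medians, 75th percentiles and quantiles. Of 28 interferon and antigen presentation genes 7 were higher and 7 lower, and Cd74 fell by 1.30 ± 0.13 (SE). The sign of that list's median turned with the scaling, from 0.09 to −0.31 after quantile normalization. Of 22 genes of the unfolded protein and heat shock response 8 were higher and 1 lower, with a median of 0.16 that was negative with the signals as deposited, centered medians or 75th percentiles. Of 18 cell cycle genes 5 were higher and 2 lower, with a median of 0.36 that was negative with centered medians and after quantile normalization. For the heat shock and cell cycle lists the shares called in either direction were below those of all genes.

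The 2-fold rises in water controls were more frequent among dim probes. With probes split by their mean level in all 6 pools, 26.2% of the dimmest 4675 were over 2-fold higher, with a median difference of 0.44, against 7.98% of the brightest 4674, with a median of 0.00. This gradient depends on the level used for the split. By the gavage level, which is one side of the difference, the shares were 34.7% and 5.01%. The splits by all pools and by the water level were chosen after seeing the data, and by the water level the shares were 16.5% and 11.7%, with the highest share (21.2%) in the next to dimmest group. The filter on every array also leaves dim probes little room to fall. The largest rises were Mup6 (6.69 ± 0.22), a major urinary protein, which read 7.53, 5.39 and 4.29 ppm in the gavage pools and 676, 475 and 602 ppm in the water pools, then Rnase10 (5.89 ± 0.08), H2-M11 (5.43 ± 0.09) and the vomeronasal receptor Vmn1r48 (5.39 ± 0.10). Genes not known for a role in the liver were among them. Of 1151 probes for olfactory receptors, which smell neurons use, 115 (9.99%) were above background on all water arrays and 46 (4.0%) on all gavage arrays. Of 45 tested 38 were over 2-fold higher in water and 0 lower, against 16.3% higher over all probes and 26.2% of the dimmest group by mean level. Vomeronasal receptors (9 of 10) and keratin-associated proteins (14 of 16) were similar. These families were chosen after their values were seen.

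**Figure D5:**
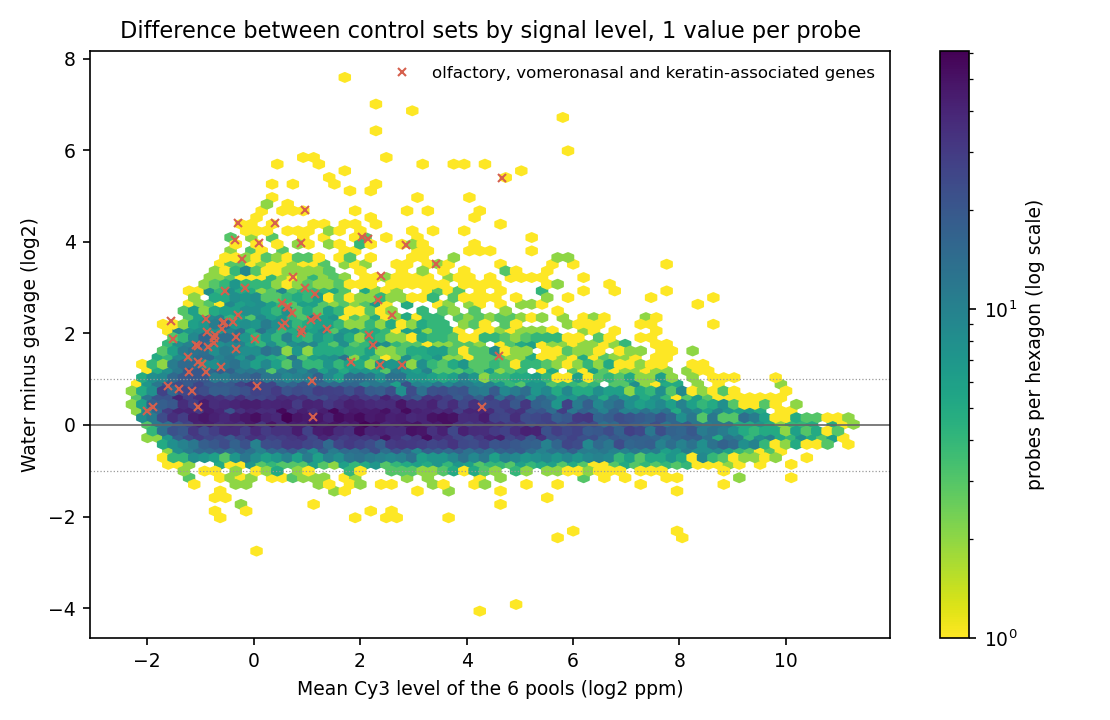
Difference between water and gavage controls (log2, vertical axis) against the mean Cy3 level of the 6 pools (log2 ppm, horizontal axis) for 18696 probes, shaded by the number of probes per hexagon on a log scale. Crosses are olfactory, vomeronasal and keratin-associated genes, and dotted lines mark 2-fold. Of the dimmest 4675 probes by this level 26.2% lie over 2-fold higher, against 7.98% of the brightest 4674.

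Spots with no mouse target moved the same way. The 10 E1A spike-in sequences, viral RNA added in labelling, were 3.36 to 4.44 (log2) higher in the water arrays, with 32 spots each. Negative control spots had medians of 0.0396 to 0.0504 ppm on the water arrays and 0.0237 to 0.0337 ppm on the gavage arrays. Probes of one gene also disagreed: of 2672 genes with more than 1 tested probe, 490 had a probe over 2-fold higher and 62 (12.7%) had all probes so, and 421 had probes called in opposite directions. Over 2-fold lower, 37 genes had a probe and 5 had all, Dbp, Osbpl3, DXBay18, Cidec and Dio1. Markers of other cells were called in both directions, while over all genes 46.8% were called higher and 23.1% lower. Of 5 tested lymphocyte markers 4 were higher, among them Cd4 (2.39 ± 0.08), and of 9 neutrophil and macrophage markers 5 were higher and 1 lower, among the former Elane (2.98 ± 0.19). Of 8 red blood cell markers 5 were higher and 1 lower, and the same counts held for 11 stellate cell markers. Of 13 endothelial markers 6 were higher and 5 lower, of 12 Kupffer cell markers 2 were higher and 4 lower, among the latter C1qa (−0.70 ± 0.07), and of 5 adipocyte markers 1 was higher and 2 lower. The shares of stellate cell and endothelial markers called higher were near that of all genes. The part of slide, labelling and software in these differences was not tested and cannot be told apart from that of the control set.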

How the data were processed

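The authors scanned the arrays and processed them with Agilent Feature Extraction (10.10.1.1 for gavage, 10.7.3.1 for water, per the file headers). The deposited Cy3 and Cy5 intensities are background-subtracted and dye-normalized within each array (linear and lowess) and not scaled between arrays. Raw median intensities of spot and background were deposited too and served for normexp (offset 50). A deposited table of log ratios was not used. The methods name another array format than the 44397 features of the files.

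Control spots and outlier spots were left out, which left 39429 probes. Each array was divided by its Cy3 total and taken to log2, and spots of a probe were averaged. Of the probes, 26412 (67.0%) were matched to a RefSeq symbol through their accession. A gene is its brightest probe. Probes well above background on all 12 arrays were fitted with limma 3.58.1 in R 4.3.3 (lmFit, eBayes, two-sided), and were called at a Benjamini-Hochberg adjusted p under 0.05. Differences are water minus gavage with the SE of limma. Where a gene was above background on every array of one set and on no array of the other, the fold is a lower bound set from the lowest signal well above background. The number of arrays limits the precision. On simulated data with 200 changed probes of 18696, the fit of the control sets recovered 0% at 1.25-fold, 62% at 1.5-fold and 92% at 2-fold. In the data 71.0% of probes were called, which makes the Benjamini-Hochberg cutoff less strict than in the simulation. Smaller differences were therefore called, and the simulated shares do not give what the fit could find here.

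Promoters come from RefSeq (GRCm38.p6). Named are the 15 largest rises and falls, the 3 largest differences of each list, the 10 most variable genes of each set, the brightest, and the genes the study followed. Others, such as Tef, Nr1d1, Cys1, Slc11a2, Smad7, Alas1, Orm2, Tat, Fasn, Ucp2, Angptl4, Usp18, Mki67 and Cyp2b13, were chosen after their values were seen. Some genes of the lists are not reported here by name. Members and lists were chosen with earlier results of these data known. In the check of pairing, deviations of same-numbered gavage arrays from their day means correlated at r from 0.318 to 0.655. Those of averaged gavage and water pools correlated at 0.262, 0.08 and 0.118, and no source links them.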

Additional observations from a re-analysis of the deposited data

How the results depend on the processing

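Between the control sets the scaling set the balance of the calls. Probes called higher in water fell from 9159 to 5547 with the signals as deposited, 5168 with centered medians, 5266 after quantile normalization and 3954 of the 9348 brighter probes (an alternative chosen after seeing the data), and rose to 22829 without a filter on dim probes, which tests more probes. Probes called lower rose from 4118 to 6672, 8750, 6851 (75th percentile) and 8616 under the deposited, median, percentile and quantile scalings. Over 2-fold higher, 3045 became 1871 with normexp, 8683 without the filter, 4716 with probes above background in at least 1 set and 807 among those brighter probes. Over 2-fold lower, 122 became 518, 870, 402 and 1032 under those 4 scalings, 59 with normexp, 227 without the filter and 72 among those brighter probes. Of genes with more than 1 probe, 624 were higher and 287 lower on all probes (also chosen after seeing the data). Leaving out each pool in turn gave 8646 to 8791 higher and 3608 to 3956 lower probes, 3027 to 3094 over 2-fold higher and 101 to 154 over 2-fold lower.

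No paired result is given for the control sets, since the numbers do not pair them. With the replicate block 9178 probes were higher and 4152 lower. Between days the replicate block called 1 probe (7 against 1 day), the slide block 6 (3 against 1 day) and the fit without the filter 17 (7 against 1 day). Leaving out a replicate called 0 to 0 between days. Between numbers 5088 probes became 2044 with normexp, 1292 without the filter, and 1345, 1705 and 971 without day 1, 3 and 7. The median SD of the water pools was 0.134 with the signals as deposited, against 0.0804. Beyond the construction of an alternative, the cause of these shifts was not tested. Of 75 named genes 0 reversed under the alternatives run. The methods' t-test after Benjamini-Hochberg called 8506 probes higher and 3731 lower and ended 10 of their calls, among them those of Per1, Saa2, Hamp2, Cfd and Thrsp.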
